A study of Mus musculus with 60 samples.

Results

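The genes described here are the clustered histone genes of the mouse, taken as every gene whose name begins with Hist1h, Hist2h, Hist3h or Hist4h in any of the 10 tables of genes that the study tested. The rule gave 55 of 49315 genes, 47 in the Hist1 cluster, 5 in Hist2, 2 in Hist3 and 1 in Hist4. They comprise 5 linker histone (H1) genes and 50 core histone genes, of which 14 code for H2A, 13 for H2B, 10 for H3 and 13 for H4. All 55 had counts, and all 55 passed the filter of 10 summed counts in each comparison.

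The series measured RNA in whole blood of male CD2F1 mice that were 5 to 6 weeks old at purchase, 60 mice in 10 groups of 6. Mice received vehicle or BIO 300, an oral formulation of synthetic genistein, by gavage for 6 days. Each dose was 50, 100 or 200 mg/kg and was given every morning and every evening. Blood was drawn from vehicle mice and from each dose group either 24 h (Day 0) or 48 h (Day 1) past the final dose. Vehicle and 200 mg/kg mice of 2 further groups were exposed to total-body irradiation (TBI) of 9.2 Gy from 60Co gamma rays on Day 0, and their blood was drawn 24 h later, on Day 1. Each library came from the terminal bleed of a separate mouse. Only males were used, and the blood was not sorted into cell types.

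Histones are the proteins around which DNA is wound: H2A, H2B, H3 and H4 form the core particle and H1 binds the linker DNA where it enters and leaves. Most clustered histone genes are transcribed mainly in S phase, when new DNA needs packing, and their mRNAs are exceptional in ending in a conserved stem-loop, bound by SLBP, in place of a poly(A) tail. Some of these genes also give polyadenylated transcripts in cells that have stopped dividing and during terminal differentiation, red cell maturation among them. The labels describe poly(A) selection, whereas the study's methods describe a stranded total RNA kit that removes ribosomal and globin RNA. These preparations recover transcripts without a tail to different degrees, so a level below is that of the transcripts the library took up, and which preparation was used could not be told apart.

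The histone stem-loop was searched for on the transcript strand, as a 16-base pattern that all the elements printed below meet. For each gene only the longest transcript with an annotated stop codon in GENCODE M21 on GRCm38 was searched. The element lay after the stop codon of 37 of the 55 members, starting 22 to 55 bases beyond it (median 32), against 22 of 21697 other protein-coding genes (0.101%) within the same 200 bases. Of the other members, 10 have models that end at the stop codon, 2 have fewer than 16 bases after it and Hist1h2al, annotated as a pseudogene, has no annotated stop, so the search could not find the element there. In the remaining 5 the element was absent from the transcript searched. These were Hist1h1a with 48 bases after the stop codon, and Hist1h2bc, Hist1h2bp, Hist1h2bq and Hist2h2be with 150 to 2192 bases. Each of these last 4 holds the polyadenylation signal AATAAA. Hist1h2bp has 2 annotated transcripts and Hist1h2bq 3, and their other transcripts were not searched. The signal AATAAA occurred after the stop codon of 15 members, and in 11 of them it lay beyond the stem-loop. The lines below show the element in members described in the results, with the 16 bases that match in capitals.
Hist1h1c (linker, chr13:23739507-23739532, plus strand): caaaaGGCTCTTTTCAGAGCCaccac
Hist1h2be (H2B, chr13:23585526-23585551, minus strand): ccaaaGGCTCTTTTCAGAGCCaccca
Hist3h2ba (H2B, chr11:58949344-58949369, plus strand): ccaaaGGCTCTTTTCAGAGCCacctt
Hist1h3g (H3, chr13:23535884-23535909, plus strand): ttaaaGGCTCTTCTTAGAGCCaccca
Hist1h4i (H4, chr13:22040961-22040986, minus strand): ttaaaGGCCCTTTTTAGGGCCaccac
Hist1h4d (H4, chr13:23581945-23581970, plus strand): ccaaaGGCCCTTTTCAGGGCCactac
Hist1h4j (H4, chr13:21735432-21735457, plus strand): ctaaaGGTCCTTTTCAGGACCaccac
Hist4h4 (H4, chr6:136803993-136804018, minus strand): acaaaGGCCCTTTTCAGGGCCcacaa
The 37 elements had 8 distinct cores, and no core was shared between H4 and the other classes. All 25 elements of H1, H2A, H2B and H3 genes began with GGCTCTT, while 10 of the 12 in H4 genes began with GGCCCTT and 2 with GGTCCTT. The core printed for Hist1h1c, Hist1h2be and Hist3h2ba was the commonest, in 18 members.

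RefSeq promoters (GRCm38.p6, 250 bases before to 50 after the start) were matched for 49 of the 55 members, and those of Hist1h2al, Hist1h2bc, Hist1h3a, Hist1h3f, Hist2h2be and Hist2h4 were not in the table. Searched on both strands, TATAAA occurred in 65.3% of these promoters against 14.2% of 27025, and CCAAT in 81.6% against 37.9%. CCAAT was in every matched promoter of H1, H2A, H2B and H3 genes (5, 13, 11 and 8) but in 3 of 12 H4 promoters. The octamer ATTTGCAT occurred in 18.4% against 1.8%, in 6 H2A and 3 H2B promoters, AGATAA, a site of the GATA kind, in 22.4% against 11.4%, and CACGTG in 0 of 49 against 7.2%. The 250 bases before the start are shown for the linker gene and the H4 gene with the most counts, which were higher at 100 and 200 mg/kg on Day 1, and for Hist4h4, which was lower after TBI, with matches of these motifs in capitals.
Hist1h1c (chr13:23738557-23738806, plus strand): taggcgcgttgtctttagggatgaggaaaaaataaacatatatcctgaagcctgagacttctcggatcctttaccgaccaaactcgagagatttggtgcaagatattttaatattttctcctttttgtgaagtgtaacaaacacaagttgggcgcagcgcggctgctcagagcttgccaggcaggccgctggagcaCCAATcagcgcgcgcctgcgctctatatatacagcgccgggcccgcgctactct
Hist1h4i (chr13:22041363-22041612, minus strand): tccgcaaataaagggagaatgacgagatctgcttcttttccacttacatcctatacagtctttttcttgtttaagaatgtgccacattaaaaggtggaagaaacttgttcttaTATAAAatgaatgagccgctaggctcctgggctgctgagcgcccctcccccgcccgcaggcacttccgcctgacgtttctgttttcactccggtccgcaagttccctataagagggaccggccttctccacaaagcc
Hist4h4 (chr6:136804432-136804681, minus strand): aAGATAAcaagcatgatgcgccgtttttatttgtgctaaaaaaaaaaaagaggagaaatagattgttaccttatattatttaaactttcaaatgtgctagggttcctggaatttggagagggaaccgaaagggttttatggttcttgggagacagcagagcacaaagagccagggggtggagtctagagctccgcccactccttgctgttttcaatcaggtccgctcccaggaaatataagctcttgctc
A match of letters in this window is a description of the sequence and does not show that a factor binds there.

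The libraries held 15099415 to 45589415 counts (median 24877994), of which the members took 0.0541% to 0.157%. In 10 of 60 libraries at least 8 of 10 hepatocyte genes exceeded 10 CPM (counts scaled to the library total), 2 of them in the vehicle TBI group, none in the 50 mg/kg Day 1 group and 1 in each other group. These were kept, and the main counts below are also given without them. Haemoglobin, platelet, neutrophil, B cell and T cell genes were detected in every group, as whole blood would hold. Levels are CPM after TMM scaling, which sets libraries against each other by the genes that change least, and folds are from edgeR's quasi-likelihood test with Benjamini-Hochberg adjustment over all genes. A gene was called a DEG where the adjusted p was under 0.05 and the absolute log2 fold change over 1. In whole blood, fewer cells of a type and less RNA per cell cannot be told apart.

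Few members carried most of the histone signal. The linker gene Hist1h1c, the H2B gene Hist1h2bc and the H4 gene Hist1h4i took 61.5% of the members' 1532440 counts, and the 12 highest took 84.6%. Linker genes alone took 42.3%. Per kilobase of exon, the mean over all 60 mice was 254 CPM for Hist1h1c, 195 for Hist1h2bc and 150 for Hist1h4i, and the next, the H4 gene Hist1h4h, had 51.7. Hist1h1d fell behind on this scale, with 2.09 CPM per kilobase over a single annotated exon of 7425 bases. At the other end, 35 of the 55 members averaged under 5 CPM and 6 under 1 CPM. Of the 12 highest, 5 hold AATAAA after the stop codon.

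Many members are near copies of each other, which limits how firmly reads can be assigned. Only 7 members had over 90% of their 50-base stretches found in no other annotated gene, Hist1h1c (91.5%), Hist1h1d (97.8%) and Hist4h4 (91.5%) among them, and 27 had under 50%. The share was 71.1% for Hist1h4i, 69.4% for Hist1h2bc, 14.4% for Hist1h4n and 10.2% for Hist1h4m, so values of the last 2 are uncertain. Hist1h2bq had the lowest share (2.68%) and the lowest mean level (0.326 CPM) of all members, and its values are uncertain too. Hist1h1e and Hist1h2be share 816 exon bases on the same strand and their counts cannot be fully separated. Exons of 15 members overlap a gene on the opposite strand, and whether counting used strand is not given in the sources used here. Of 13 further genes with such names in the annotation, which were in none of the tested tables, 5 had no count in any mouse and the highest had 482 counts over 60 mice.

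**Figure D1:**
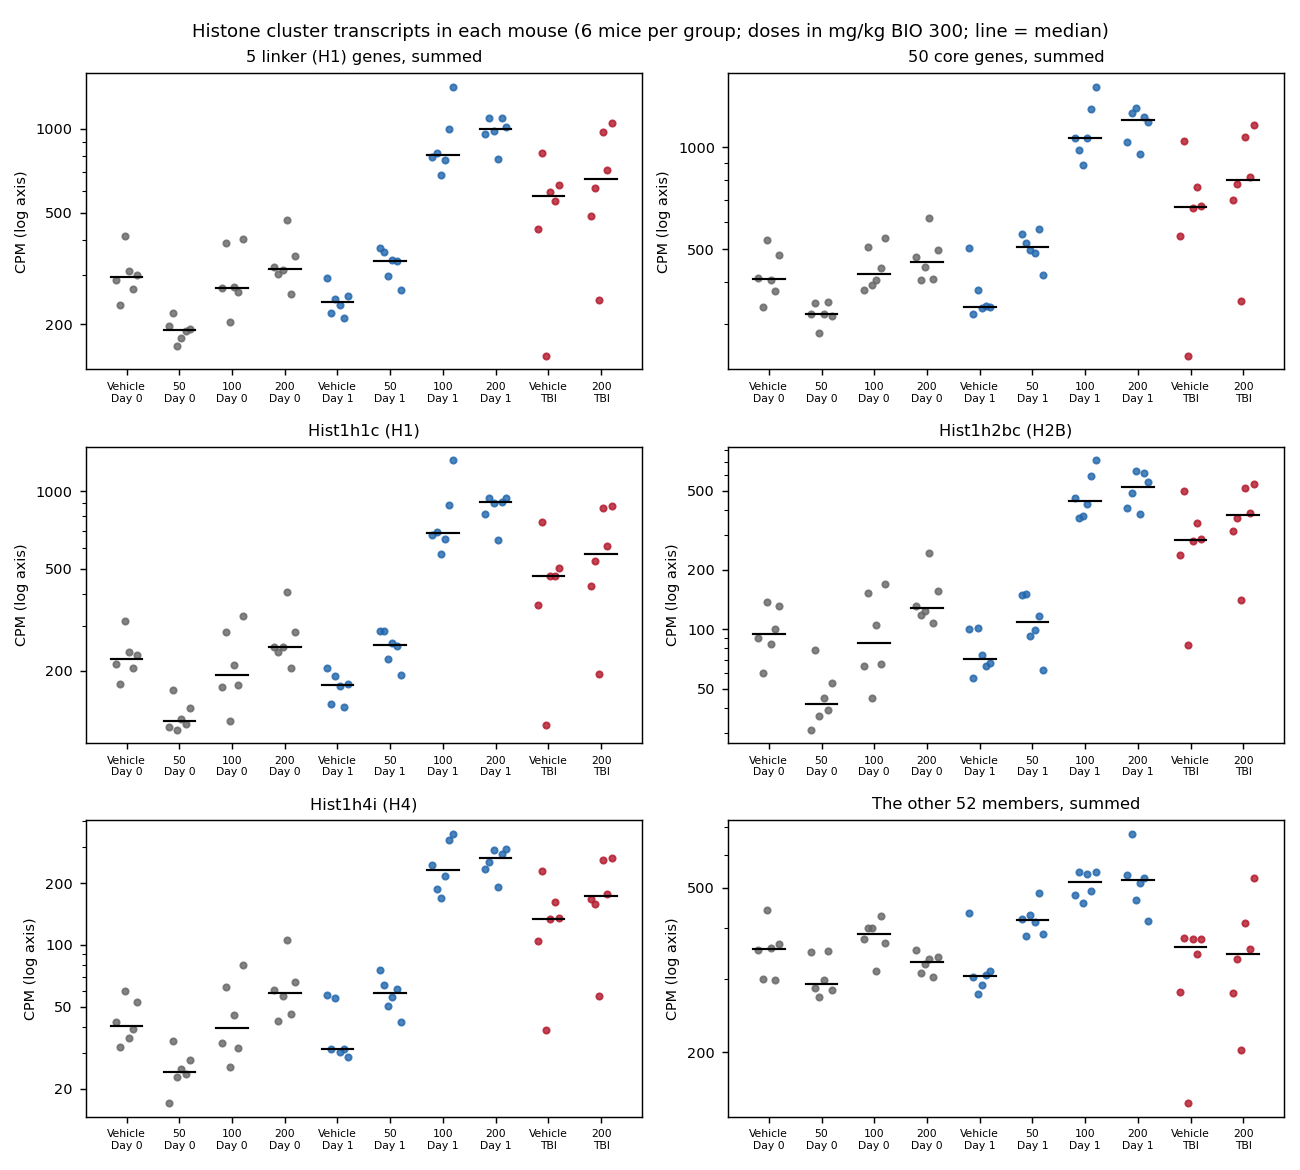
CPM on the TMM scale (log axis) in each of 60 mice, by group, for the 5 linker genes and 50 core genes summed, for Hist1h1c, Hist1h2bc and Hist1h4i, and for the other 52 members summed. Points are mice and lines are group medians. On this scale the 100 and 200 mg/kg Day 1 groups lie above vehicle in the top 2 panels, and the irradiated groups spread over a wide range, whereas scaling to total counts reduces the Day 1 differences (linker log2 ratio of medians at 200 mg/kg from 2.06 to 0.58).

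Across the 10 groups, the median summed linker level on the TMM scale was lowest at 50 mg/kg on Day 0 and highest at 200 mg/kg on Day 1. The order depended on scaling. With total counts the median was lowest at 200 mg/kg on Day 0 (307 CPM) and highest in irradiated 200 mg/kg mice (581). It was then 508 CPM at 200 mg/kg on Day 1. On the TMM scale the sum ran from 233 to 415 CPM (median 294) in Vehicle Day 0 mice, and from 210 to 293 (median 239) in Vehicle Day 1 mice. On Day 0 it was 167 to 219 CPM (median 190) at 50 mg/kg, 204 to 402 (median 269.5) at 100 mg/kg and 256 to 469.7 (median 315) at 200 mg/kg. The 50 mg/kg mice were all below the vehicle mice of that day, and the other doses overlapped them. On Day 1 the sum was 264 to 375 CPM (median 337) at 50 mg/kg, 682 to 1415 (median 806) for the 100 mg/kg group and 777 to 1097 (median 998) for the 200 mg/kg group. The irradiated vehicle mice spanned 154 to 822 CPM (median 574) and the irradiated 200 mg/kg mice 243 to 1046 (median 662). The irradiated vehicle range overlapped every other group, and the irradiated 200 mg/kg range overlapped every group but 50 mg/kg on Day 0. The lowest mouse of each irradiated group was also a library with hepatocyte genes (described above).

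The 50 core genes summed followed a like order on the TMM scale. With total counts their median was highest in irradiated 200 mg/kg mice (723 CPM, with 610 at 200 mg/kg on Day 1). On the TMM scale their sum was 338 to 534 CPM (median 408) in Vehicle Day 0 mice and 322 to 503 (median 338) in Vehicle Day 1 mice. On Day 1 the 100 mg/kg group had 890 to 1511 CPM (median 1066) and the 200 mg/kg group 956 to 1307 (median 1209), with no mouse in the range of Vehicle Day 1. After TBI it was 242 to 1043 CPM (median 666) with vehicle and 352 to 1166 (median 799) with 200 mg/kg. The 52 members other than Hist1h1c, Hist1h2bc and Hist1h4i summed to 277 to 434 CPM (median 305) in Vehicle Day 1 mice and 151 to 378 (median 359.9) in irradiated vehicle mice. The sum of the 3 highest was 237 to 362 (median 277) and 245 to 1486 (median 902) in the same groups. The median over mice thus lay closer to vehicle for the sum of the 52 than for that of the 3 highest. A sum does not show how single members changed.

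On Day 0, DEGs among the members were found at 50 mg/kg only. At that dose 3 of 55 members were lower and 0 higher than in Vehicle Day 0 mice, where 4.38% of all 24485 genes tested were lower and 0.127% higher, and all 3 code for H2B. The share of members lower (5.45%) was near that of all genes. Hist3h2ba measured 1.86 to 3.97 CPM (median 2.67) with vehicle and 0.700 to 1.61 (median 1.14) at 50 mg/kg, with no overlap, a log2 fold change of -1.28 ± 0.22 (SE, n = 6 per group, edgeR quasi-likelihood adjusted p = 0.0027). Hist1h2bp, from 1.74 to 3.58 CPM (median 2.25) down to 0.474 to 1.44 (median 0.868), changed by -1.33 ± 0.28 (adjusted p = 0.0077, same edgeR test), also without overlap. Hist1h2bc measured 60.3 to 137 CPM (median 94.8) and 31.1 to 78.2 (median 42.1) in the same groups, which overlapped, with a log2 fold change of -1.08 ± 0.24 (adjusted p = 0.010, same edgeR test). Under scaling to total counts, which moved the median of all genes in this comparison by 0.66 on the log2 scale, none of the 3 was a DEG, and without the libraries with hepatocyte genes, or without vehicle mouse 15 or 18 or treated mouse 1, Hist1h2bc was not. Red cell genes moved with them on the TMM scale: 7 of 8 red cell genes, 4 of 7 platelet genes and 1 of 4 haemoglobin genes were lower at 50 mg/kg, and their part in the result was not tested.

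The linker gene Hist1h1c, coding for H1.2, changed by -0.76 ± 0.13 on the log2 scale in the 50 mg/kg Day 0 group (adjusted p = 0.0032, edgeR quasi-likelihood test), under the fold required for a DEG, and its groups did not overlap, with 178 to 312 CPM (median 223) for vehicle and 118 to 169 (median 127) at 50 mg/kg. With total counts the Hist1h1c ranges overlapped, at 202 to 307 CPM (median 257) for vehicle and 227 to 259 (median 241) at 50 mg/kg. In all, 3 members lay below vehicle in every mouse and 0 above on the TMM scale, against 4.39% and 2.54% of all genes. At 100 and 200 mg/kg on Day 0, edgeR called 0 members and 0 of all genes (0%). At an unadjusted p under 0.05 it had 0 and 7 members at these doses, and DESeq2 called 0 members at each. The same test called 0 members between Vehicle Day 1 and Vehicle Day 0 (0% of all genes), with 6 members at an unadjusted p under 0.05, and DESeq2 called 1 lower. How many of all genes reached an unadjusted p under 0.05 was not counted for any comparison.

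At 50 mg/kg on Day 1, edgeR again called 0 members (0% of all genes). The unadjusted p was under 0.05 for 32 members, without a count over all genes to set beside it. On the TMM scale 53 of 55 folds were positive, with a median log2 fold change of 0.49 against -0.04 over all 24118 genes tested. With total counts 42 were positive, and these medians were 0.15 and -0.36. For 5 members every 50 mg/kg mouse lay above every Vehicle Day 1 mouse on the TMM scale, where 0.506% of all genes did so and 0.983% lay below, and 4 of the 5 code for H4. Hist4h4 showed 23.7 to 32.0 CPM (median 28.0) at 50 mg/kg and 10.7 to 19.7 (median 16.4) with vehicle, a log2 fold change of 0.80 ± 0.13 (adjusted p = 0.059, edgeR quasi-likelihood test). For the H4 gene Hist1h4h these ranges were 26.8 to 36.4 CPM (median 34.8) and 17.1 to 24.9 (median 19.1), with a fold of 0.74 ± 0.10 (adjusted p = 0.031, same edgeR test), under the size required.

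**Figure D2:**
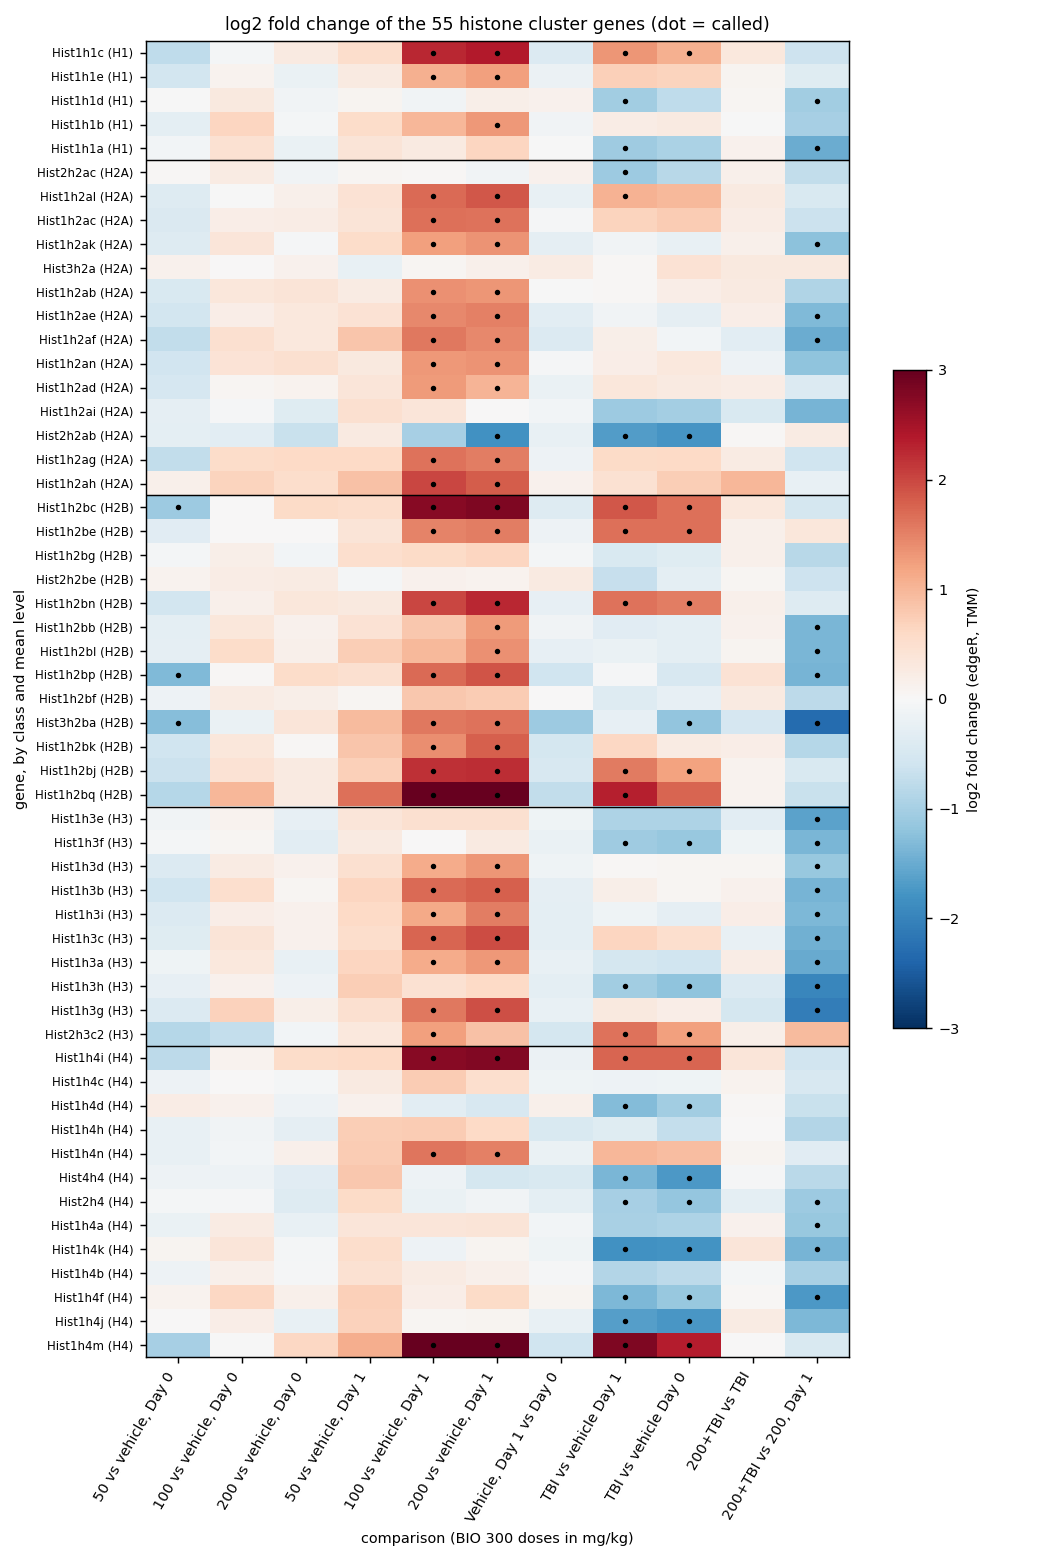
Log2 fold changes of the 55 members (rows, by class and then by mean level) in the 11 comparisons between pairs of groups (columns), on the TMM scale, where red is higher and blue lower in the first group named and a dot marks a DEG. The 100 and 200 mg/kg Day 1 columns hold 30 and 32 members higher, the irradiated vehicle columns hold members of both directions, and with scaling to total counts the Day 1 columns hold 4 higher and 16 lower.

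On Day 1 at 100 mg/kg, 30 of 55 members were higher than in Vehicle Day 1 mice and 0 lower on the TMM scale, where 18.2% of all 23699 genes tested were higher and 30.6% lower, and with scaling to total counts 4 members were higher and 16 lower. At 200 mg/kg, 32 members were higher and 1 lower, against 17.3% and 30.5% of 23513 genes, and 4 were higher and 16 lower with total counts. The median log2 fold change of the members was 1.12 for the 100 mg/kg and 1.30 for the 200 mg/kg group, against -0.38 and -0.48 over all genes. Total-count scaling shifted the median of all genes by -1.38 and -1.48, and that of the members with it, to -0.26 and -0.19. A direction against vehicle in these comparisons is therefore relative to the scaling. The distance of the members from all genes (1.49 and 1.76 with total counts) hardly depends on it by construction, since scaling moves all genes alike. The comparisons share the Vehicle Day 1 mice, and every TBI comparison with that group shares them too.

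**Figure D3:**
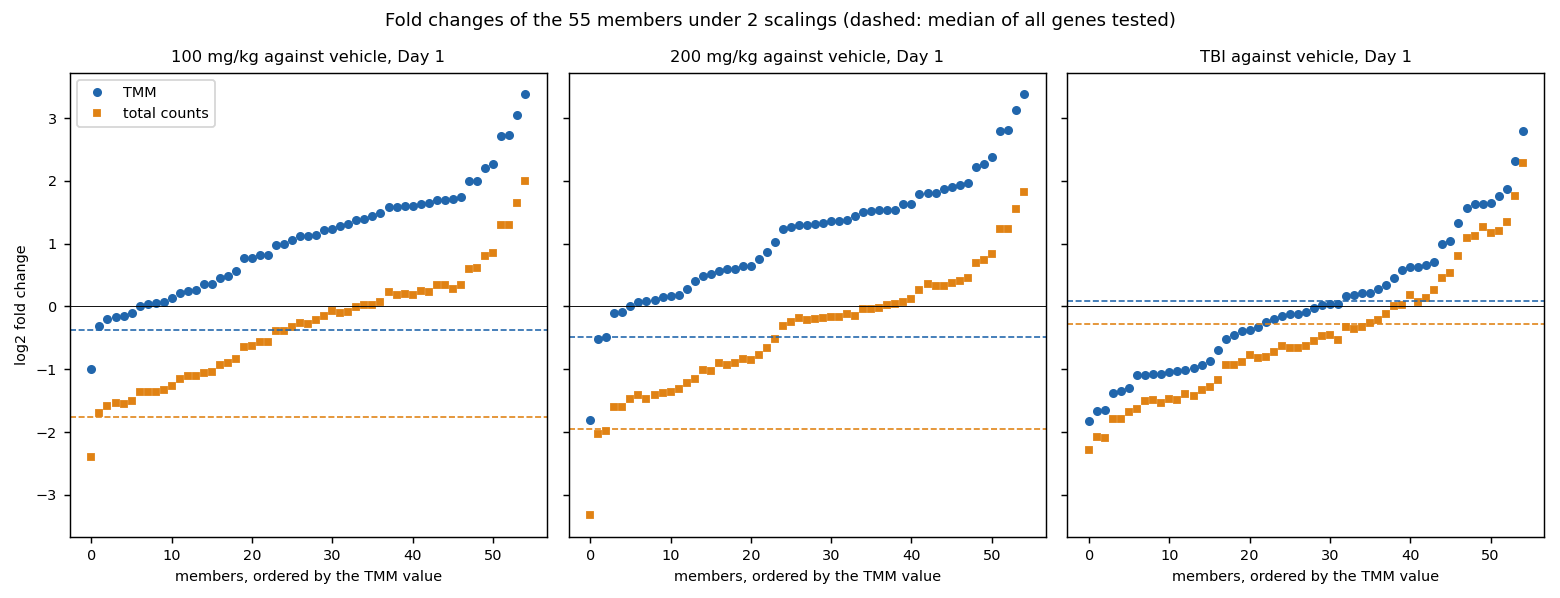
Log2 fold changes of the 55 members, ordered by value, under TMM (blue) and total-count scaling (orange), for 100 mg/kg, 200 mg/kg and TBI, each against Vehicle Day 1; dashed lines are medians of all genes tested. Total counts move the members down together with all genes, by 1.38 and 1.48 in the first 2 panels, so that 4 members stay higher DEGs in each of these panels and 16 become lower.

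Several blood cell lists moved in the same comparisons on the TMM scale, and were not computed with total counts. All 7 platelet and all 4 haemoglobin genes were higher at both doses, 6 and 8 of 8 red cell genes were higher, and all 8 B cell and all 8 T cell genes were lower. Of all genes, 18.2% and 17.3% were higher and 30.6% and 30.5% lower at these doses. The summed platelet level was 1881 to 3790 CPM in Vehicle Day 1 mice and 13641 to 23915 at 200 mg/kg, and the 4 haemoglobin genes summed to 58266 to 82927 and 167825 to 429542 CPM. The B cell sum was 1486 to 2362 CPM in Vehicle Day 1 mice and 260 to 858 at 200 mg/kg. None of these ranges overlapped between the 2 groups on the TMM scale, and their part in the histone levels was not tested.

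Among the linker genes, Hist1h1c had the largest change. It measured 145 to 205 CPM (median 176) in Vehicle Day 1 mice, 571 to 1321 (median 687) in the 100 mg/kg group and 646 to 943 (median 905) in the 200 mg/kg group, with neither dose overlapping vehicle. The log2 fold changes were 2.26 ± 0.19 (adjusted p = 2.6e-07) and 2.38 ± 0.14 (adjusted p = 1.8e-08, both edgeR quasi-likelihood), and 0.84 at each dose with total counts. Hist1h1e, coding for H1.4, measured 34.6 to 51.1 CPM (median 43.4) with vehicle, 70.6 to 94.0 (median 85.7) at 100 mg/kg and 56.1 to 159 (median 97.0) at 200 mg/kg. Both doses lay above vehicle in every mouse, with folds of 1.06 ± 0.11 (adjusted p = 1.2e-06) and 1.23 ± 0.22 (adjusted p = 2.0e-04, edgeR), which turned to -0.33 and -0.31 with total counts.

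The other linker genes changed less. Hist1h1b, coding for H1.5, ran from 2.70 to 5.46 CPM (median 2.96) with vehicle and from 3.35 to 13.4 (median 7.42) at 200 mg/kg, with a fold of 1.30 ± 0.31 (adjusted p = 0.0023, edgeR quasi-likelihood test) and -0.19 with total counts. Its ranges overlapped at 200 mg/kg. At 100 mg/kg its fold of 1.00 ± 0.19 fell just short of the size required, although no mouse overlapped vehicle. Hist1h1d, coding for H1.3, and Hist1h1a, coding for H1.1, were not DEGs, with folds at 200 mg/kg of 0.18 ± 0.25 and 0.64 ± 0.28.

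Of the 14 H2A genes, 10 were higher at each dose on the TMM scale, and none of these was a higher DEG with total counts. Their TMM folds at 200 mg/kg ran from 1.03 for Hist1h2ad to 1.87 for Hist1h2al, which is annotated as a processed pseudogene. Hist2h2ab was the only member lower at 200 mg/kg. It measured 0.583 to 1.37 CPM (median 0.930) with vehicle and 0.0404 to 0.586 (median 0.170) at 200 mg/kg, which is 22 to 48 and 1 to 7 counts per library, and the ranges just overlapped. The log2 fold change was -1.81 ± 0.52 (adjusted p = 0.0077, edgeR quasi-likelihood test) and -3.33 with total counts. Its exon overlaps 303 bases of a gene on the opposite strand, Gm15444. Hist2h2ac, the H2A gene with the most counts, had a fold of -0.10 ± 0.20.

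Of the 13 H2B genes, 8 rose with 100 mg/kg and 10 with 200 mg/kg on the TMM scale, and 2 at each dose, Hist1h2bc and Hist1h2bq, with total counts. Hist1h2bq, with few stretches of its own, had 0 to 6 counts per library with vehicle and 2 to 47 with 100 mg/kg. Hist1h2bc measured 56.5 to 101 CPM (median 70.8) with vehicle, 366 to 714 (median 444) with 100 mg/kg and 381 to 630 (median 522) with 200 mg/kg. No mouse of either dose overlapped vehicle, and the folds were 2.72 ± 0.20 (adjusted p = 7.4e-08) and 2.80 ± 0.18 (adjusted p = 2.1e-08, edgeR quasi-likelihood), or 1.29 and 1.24 with total counts. Hist1h2be measured 10.4 to 14.5 CPM (median 11.4) with vehicle and 24.8 to 39.9 (median 33.9) at 200 mg/kg, without overlap. Its fold of 1.53 ± 0.12 (adjusted p = 8.7e-08, edgeR) became -0.021 with total counts. Hist3h2ba, a member outside the large chromosome 13 cluster, had 0.869 to 1.67 CPM (median 1.37) with vehicle and 2.58 to 5.17 (median 4.18) at 200 mg/kg, a fold of 1.64 ± 0.25 (adjusted p = 5.4e-05, edgeR) and 0.07 with total counts. Hist1h2bp showed 0.934 to 2.61 CPM (median 1.44) and 3.55 to 7.37 (median 5.82) in these groups, a fold of 1.90 ± 0.28 (adjusted p = 4.1e-05, edgeR) and 0.37 with total counts.

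Of the 10 H3 genes, 7 rose with 100 mg/kg and 6 with 200 mg/kg on the TMM scale, and none with total counts. Hist1h3g measured 0.541 to 1.77 CPM (median 0.747) with vehicle and 1.86 to 5.65 (median 3.15) at 200 mg/kg, just without overlap, and its fold was 1.94 ± 0.37 (adjusted p = 3.7e-04, edgeR quasi-likelihood test). The other 5 H3 genes higher at 200 mg/kg had folds of 1.30 to 1.96. Hist2h3c2 was a DEG at 100 mg/kg (1.24 ± 0.42) and not at 200 mg/kg (0.87 ± 0.50), at levels under 1 CPM in both.

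H4 had the fewest higher DEGs for its number of genes, 3 of 13 at each dose on the TMM scale, and these were Hist1h4i, Hist1h4m and Hist1h4n, of which Hist1h4i and Hist1h4m were also higher with total counts. Hist1h4i measured 28.7 to 57.2 CPM (median 31.3) with vehicle, 168 to 347 (median 231) with 100 mg/kg and 191 to 291 (median 264) with 200 mg/kg. It did not overlap vehicle at either dose, with folds of 2.73 ± 0.24 (adjusted p = 2.8e-07) and 2.79 ± 0.20 (adjusted p = 3.5e-08, edgeR quasi-likelihood), or 1.29 and 1.23 with total counts. Hist1h4m had the largest fold of all members at 200 mg/kg and the second largest at 100 mg/kg, after the H2B gene Hist1h2bq (3.38 ± 0.61, on few counts), with 3.38 ± 0.38 and 3.05 ± 0.31 (adjusted p = 3.3e-06 and 1.1e-06, edgeR). It went from 0.132 to 0.347 CPM (median 0.276) with vehicle to 1.08 to 4.02 (median 2.17) at 200 mg/kg. These levels are 5 to 11 and 11 to 54 counts per library, in a gene with few stretches of its own. Hist1h4n measured 10.5 to 16.0 CPM (median 12.1) with vehicle and 27.7 to 43.7 (median 30.8) at 200 mg/kg, a fold of 1.52 ± 0.14 (adjusted p = 4.4e-07, edgeR) and -0.042 with total counts. The remaining H4 genes with high counts had folds under the size required, such as 0.52 ± 0.12 for Hist1h4c, 0.60 ± 0.13 for Hist1h4h, -0.48 ± 0.26 for Hist1h4d and -0.52 ± 0.19 for Hist4h4 at 200 mg/kg.

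Counted by mice rather than by a test, 26 members of the 100 mg/kg comparison and 23 of the 200 mg/kg one lay above Vehicle Day 1 in every mouse on the TMM scale, against 17.2% and 16.5% of all genes. Without the libraries with hepatocyte genes, 29 members rose with 100 mg/kg and 32 with 200 mg/kg, and 1 was lower at 200 mg/kg.

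TBI in vehicle mice changed members in both directions. Against Vehicle Day 1, 10 of 55 members were higher and 12 lower, where 19.6% of 25146 genes were higher and 16.4% lower. Without the libraries with hepatocyte genes these counts were 13 and 6, and with total counts 8 and 17. Against Vehicle Day 0, 8 were higher and 10 lower, against 15.1% and 11.8% of 24751 genes, with 11 and 10 without those libraries and 5 and 16 with total counts. The median log2 fold change of the members was -0.10 against Vehicle Day 1 and -0.22 against Vehicle Day 0, with 0.09 and 0.18 over all genes. The share of members called higher (18.2% and 14.5%) was near that of all genes. The share called lower was 21.8% and 18.2%, against 16.4% and 11.8% of all genes, and whether these differ was not tested. The count lower than Vehicle Day 1 was 7 by DESeq2, by relative log expression and with filterByExpr, 6 when the control mouse 25 was left out and 7 when the irradiated mouse 51 was left out.

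On the TMM scale, platelet and neutrophil genes were higher in these comparisons, 7 of 7 and 7 of 8 against each control, and B cell and T cell genes were lower, 8 of 8 each. Of 4 haemoglobin genes 0 were DEGs, and of 8 red cell genes 3 were higher against each control and 2 lower against Vehicle Day 0. The platelet sum in irradiated vehicle mice was 3914 to 27381 CPM and the haemoglobin sum 11902 to 204481 CPM, both wider than in Vehicle Day 1 mice. Their part in the histone levels was not tested.

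The linker genes divided after TBI. Hist1h1c measured 123 to 756 CPM (median 467), overlapping 145 to 205 in Vehicle Day 1 mice through the single lowest mouse, with log2 fold changes of 1.33 ± 0.32 against Vehicle Day 1 and 1.08 ± 0.36 against Vehicle Day 0 (adjusted p = 0.0048 and 0.031, edgeR quasi-likelihood), or 0.80 and 0.75 with total counts. Its call against Vehicle Day 0 held in 3 of the 12 fits that each left out 1 mouse. Hist1h1d was lower than Vehicle Day 1, at 4.37 to 11.4 CPM (median 9.08) against 12.5 to 25.5 (median 17.0), without overlap and with a fold of -1.03 ± 0.25 (adjusted p = 0.0046, edgeR). Hist1h1a was lower too, at 1.21 to 2.84 CPM (median 2.03) against 3.16 to 5.74 (median 3.79), with a fold of -1.07 ± 0.25 (adjusted p = 0.0041, edgeR). Neither passed the size required against Vehicle Day 0 (-0.77 ± 0.26 and -0.96 ± 0.28), and neither was a DEG against Vehicle Day 1 without the libraries with hepatocyte genes or without mouse 25 or 51. Hist1h1d also lost the call without mouse 26 or 49. Hist1h1e (0.70 ± 0.31) and Hist1h1b (0.22 ± 0.39) were not DEGs against Vehicle Day 1.

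The core genes higher after TBI were mostly H2B genes, 5 of 13 against Vehicle Day 1 and 4 of 13 against Vehicle Day 0, with 2 of 13 H4 genes in each comparison. Hist1h2bc measured 83.1 to 501 CPM (median 283) after TBI, with folds of 1.87 ± 0.34 and 1.64 ± 0.37 against Vehicle Day 1 and Day 0 (adjusted p = 7.3e-04 and 0.0043, edgeR quasi-likelihood). Hist1h2be measured 12.4 to 55.4 CPM (median 39.3), with a fold of 1.65 ± 0.29 against Vehicle Day 1 and 1.65 ± 0.32 against Vehicle Day 0 (adjusted p = 5.3e-04 and 0.0016, edgeR). The lowest irradiated mouse overlapped the controls for both genes. Hist1h4i, at 38.4 to 229 CPM (median 134), had folds of 1.75 ± 0.36 and 1.74 ± 0.36 (adjusted p = 0.0016 and 0.0024, edgeR). Hist1h4m was the only member above each control in every irradiated mouse, against 11.1% of all genes for Vehicle Day 1 and 8.49% for Vehicle Day 0, at 0.620 to 3.14 CPM (median 1.72) with folds of 2.80 ± 0.40 and 2.34 ± 0.46 (adjusted p = 1.3e-04 and 0.0017, edgeR). All 4 genes were also higher DEGs with total counts.

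H4 was the class with the most genes lower after TBI, 6 of 13 against each control, among 12 members lower than Vehicle Day 1 and 10 lower than Vehicle Day 0. Hist1h4k measured 3.07 to 7.20 CPM (median 4.00) in Vehicle Day 1 mice and 0.704 to 1.68 (median 1.48) after TBI, a log2 fold change of -1.82 ± 0.28 (adjusted p = 2.4e-04, edgeR quasi-likelihood test). Hist1h4j measured 1.00 to 1.95 CPM (median 1.45) and 0.310 to 0.560 (median 0.545) in these groups, a fold of -1.65 ± 0.26 (adjusted p = 2.4e-04, edgeR). Neither overlapped, and both were also lower than Vehicle Day 0 in every mouse, with folds of -1.80 ± 0.28 and -1.75 ± 0.28. Hist4h4 fell from 10.7 to 19.7 CPM (median 16.4) to 4.93 to 7.34 (median 6.69), with a fold of -1.38 ± 0.18 (adjusted p = 8.5e-05, edgeR), and had -1.71 ± 0.18 against Vehicle Day 0. Hist1h4d went from 29.3 to 50.0 CPM (median 32.5) to 8.62 to 19.2 (median 15.0), a fold of -1.30 ± 0.20 (adjusted p = 2.3e-04, edgeR). The irradiated mice again lay wholly below both controls, and these 4 H4 genes kept their call with total counts and without the libraries with hepatocyte genes, while Hist1h4d lost it against Vehicle Day 0 (-1.03 ± 0.20) without control mouse 15.

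Outside H4, the H2A genes Hist2h2ab and Hist2h2ac were lower than Vehicle Day 1. Hist2h2ab measured 0.111 to 0.600 CPM (median 0.293) after TBI, with a fold of -1.67 ± 0.38 (adjusted p = 0.0034, edgeR quasi-likelihood test) that held against Vehicle Day 0 (-1.78 ± 0.39). Hist2h2ac measured 10.8 to 18.2 CPM (median 11.4) with vehicle and 4.15 to 9.19 (median 5.09) after TBI, without overlap, a fold of -1.09 ± 0.23 (adjusted p = 0.0021, edgeR) that was -0.83 ± 0.23 against Vehicle Day 0, under the size required, and the first call was lost without control mouse 25. Counted by mice, 12 members lay below Vehicle Day 1 and 14 below Vehicle Day 0 in every mouse, against 14% and 10.3% of all genes. Hist3h2ba was lower than Vehicle Day 0 (-1.18 ± 0.43, adjusted p = 0.049, edgeR) in a call that held in 3 of 12 fits without 1 mouse, and not a DEG against Vehicle Day 1 (-0.25 ± 0.41). It was the 1 member whose level in Vehicle Day 1 mice lay below Vehicle Day 0 in every mouse, where 0.217% of all genes did and 0.476% lay above.

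**Figure D4:**
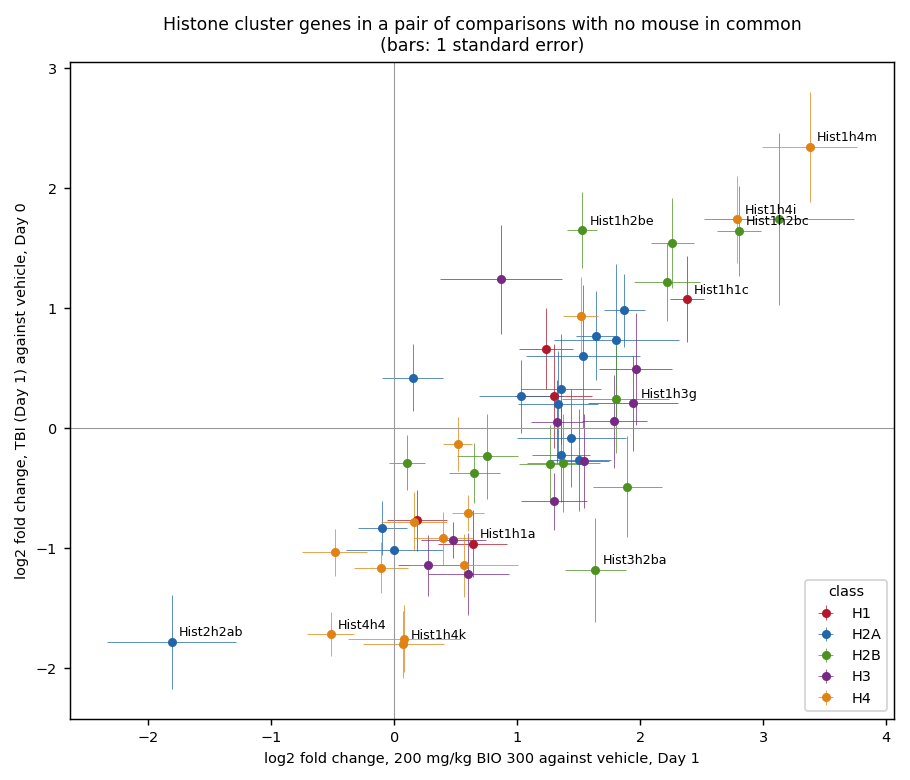
Log2 fold change of each member at 200 mg/kg against Vehicle Day 1 (x axis) and after TBI against Vehicle Day 0 (y axis), comparisons with no mouse in common; points are genes coloured by class, and bars are 1 SE on the TMM scale. Hist1h4m lies at 3.38 and 2.34, Hist2h2ab at -1.81 and -1.78, and Hist3h2ba at 1.64 and -1.18, while total counts lower the x values of all genes by 1.48.

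The comparison of 200 mg/kg with Vehicle Day 1 and that of irradiated vehicle mice with Vehicle Day 0 have no mouse in common. Of the 8 members higher after TBI in the second, 7 (87.5%) were among the 32 higher at 200 mg/kg (21.9%), namely Hist1h1c, the H2B genes Hist1h2bc, Hist1h2be, Hist1h2bj and Hist1h2bn, and the H4 genes Hist1h4i and Hist1h4m. Hist2h2ab was lower in both, and Hist3h2ba was higher in the first and lower in the second. Of all members, 58.2% were higher at 200 mg/kg, and of 3512 genes higher after TBI among all genes tested in both comparisons, 51.1% were higher at 200 mg/kg. Whether the share of members differs from these was not tested. With total counts 4 members were higher at 200 mg/kg and 5 after TBI.

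BIO 300 at 200 mg/kg did not separate the irradiated groups by this test. Between irradiated 200 mg/kg and irradiated vehicle mice, edgeR called 0 members and 0 of all 24916 genes (0%), with 0 members at an unadjusted p under 0.05 and 0 by DESeq2. The members' median log2 fold change was 0.12 against -0.07 over all genes. Hist1h1c measured 195 to 879 CPM (median 572) with the drug, Hist1h2bc 141 to 543 (median 376), Hist1h4i 56.5 to 264 (median 172) and Hist1h4m 0.669 to 2.93 (median 2.01), and each overlapped the irradiated vehicle mice. Hist4h4 measured 4.77 to 7.82 CPM (median 6.41) and Hist1h4k 0.774 to 3.29 (median 1.27), and all 55 members overlapped, where 0.0482% of all genes lay above and 0.0201% below in every mouse. A missed threshold does not show that these levels were equal, since the irradiated groups varied widely.

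Within mice given 200 mg/kg, members were lower and none higher after irradiation on the TMM scale, while total counts gave 3 higher and 3 lower. Against unirradiated 200 mg/kg mice on Day 1, 22 of 55 members were lower and 0 higher, where 5.73% of 23610 genes were lower and 14.9% higher. By class these were 2 of 5 linker, 3 of 14 H2A, 4 of 13 H2B, 9 of 10 H3 and 4 of 13 H4 genes. The count was 22 without the libraries with hepatocyte genes and 13 when unirradiated mouse 44 was left out. Hist3h2ba had the largest change, from 2.58 to 5.17 CPM (median 4.18) to 0.611 to 1.05 (median 0.844), a log2 fold change of -2.30 ± 0.29 (adjusted p = 1.5e-04, edgeR quasi-likelihood test) and -1.41 with total counts. Hist1h3g went from 1.86 to 5.65 CPM (median 3.15) to 0.306 to 1.24 (median 0.807), a fold of -2.06 ± 0.40 (adjusted p = 0.0022, edgeR) and -1.28 with total counts. Hist1h3h, an H3 gene, changed by -1.95 ± 0.37 (adjusted p = 0.0019, edgeR) and by -1.15 with total counts. No mouse overlapped for any of these, and 9 members in all lay below in every mouse, against 5.65% of all genes. The 3 members with most counts were not DEGs here, at -0.63 ± 0.30 for Hist1h1c, -0.53 ± 0.28 for Hist1h2bc and -0.58 ± 0.29 for Hist1h4i. In the same comparison 11 of 22 DNA replication genes, 7 of 8 B cell genes, 3 of 4 haemoglobin genes and 4 of 8 red cell genes were lower, and 6 of 8 neutrophil genes higher, and their part in the result was not tested.

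The difference between effects was tested as a contrast of 4 groups. It is signed, so a higher effect is a more positive or less negative fold change, and a lower effect the reverse. The 200 mg/kg effect on Day 1 was lower in irradiated than in unirradiated mice for 15 members and higher for 1 on the TMM scale, against 10% and 19.5% of 26875 genes, while total counts gave 2 and 12. The 1 member with a higher effect, Hist2h2ab, was a lower DEG at 200 mg/kg without irradiation and not a DEG with it. Without the libraries with hepatocyte genes the effect was lower for 25 members and higher for 0. Hist1h4m differed by -3.13 ± 0.55 and Hist1h2bc by -2.26 ± 0.43 (adjusted p = 3.0e-04 and 5.3e-04, edgeR quasi-likelihood). Hist1h3g differed by -2.23 ± 0.54 and Hist2h2ab by 2.05 ± 0.73 (adjusted p = 0.0032 and 0.032, edgeR), and the call of Hist2h2ab was lost without those libraries (1.55, adjusted p = 0.090, edgeR). The effect on Day 1 was higher than that on Day 0 for 10 members at 50 mg/kg (6.73% of 26323 genes, with 0.961% lower). At 100 mg/kg this held for 20 members (15.7% of 25908, with 26.3% lower) and at 200 mg/kg for 26 (13.1% of 25702, with 23.6% lower). No member had a lower effect on Day 1 by this test. At 50 mg/kg, Hist3h2ba and Hist1h2bp were lower DEGs on Day 0 and not DEGs on Day 1. At 100 and 200 mg/kg Hist1h1c differed between the days by 2.35 ± 0.32 and 2.14 ± 0.23 (adjusted p = 2.3e-06 and 2.0e-07, edgeR). For 50 mg/kg DESeq2 gave 19 and relative log expression 17 in place of 10. With total counts these day contrasts gave 1 higher and 3 lower for 50 mg/kg, 3 and 22 for 100 mg/kg and 1 and 10 for 200 mg/kg.

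Genes that act with the clustered histones were followed from a list. Of 22 DNA replication genes, 11 were higher with 100 mg/kg and 11 with 200 mg/kg on Day 1 on the TMM scale (median log2 fold changes 1.00 and 1.01), where 18.2% and 17.3% of all genes were, but 3 and 0 were higher and 8 and 7 lower with total counts (medians -0.39 and -0.55). After TBI against Vehicle Day 1, 4 were higher and 4 lower, beside 19.6% and 16.4% of all genes, and with total counts 1 and 7. The total-count values of this list were computed after its TMM values were seen. Of 11 genes for histone mRNA production, which include Slbp, the stem-loop binding protein, and Npat, a coactivator of histone transcription, 1 was lower at 200 mg/kg (Cpsf3, a pre-mRNA endonuclease, -1.18 ± 0.21). At that dose 30.5% of all genes were lower. After TBI against Vehicle Day 1, Lsm11 was lower (-1.54 ± 0.20) and Lsm10 higher (1.09 ± 0.19), both U7 snRNP proteins that take part in histone mRNA processing (adjusted p = 6.5e-05 and 6.2e-04, edgeR quasi-likelihood). Slbp had folds of 0.18 ± 0.13 at 200 mg/kg and -0.23 ± 0.14 after TBI, and Npat 0.01 ± 0.14 and -0.45 ± 0.15, none a DEG. The folds of this list are on the TMM scale and were not computed with total counts. That scaling shifts the median of all genes at 200 mg/kg by -1.48.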

How the data were processed

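Whole-blood RNA of 60 mice was sequenced by the authors on a NextSeq 500. Per the labels and the study's methods, reads were trimmed with Trimmomatic 0.36, aligned to GRCm38 with STAR 2.5.2b and counted per gene with Subread 1.5.2. The values used here are the raw counts the authors deposited, 1 column per mouse. The annotation release and strand setting of the counting are not given in the sources used here. The deposited tables of tested genes hold the authors' own fold changes and p-values, of which only the gene names were used. Groups came from the sample titles.

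Genes with at least 10 summed counts in a comparison were tested with edgeR 4.0.16 (R 4.3.3, quasi-likelihood, TMM) on the 2 groups compared. Differences between effects were contrasts in fits of 4 groups. P-values were adjusted by Benjamini-Hochberg over all genes tested, and DEGs had to pass 0.05 after adjustment and change by more than 1 on the log2 scale. Levels are CPM after TMM over the 60 mice. With 6 mice per group, all tests compare mice. The members and all gene lists were chosen with earlier results of these data known. The named genes were every H1 member, the 12 members with the highest mean CPM, and, per comparison with a DEG among the members, the 3 with the largest absolute log2 fold change in each direction among those of at least 1 CPM in a group. Other members, and single genes of the lists, were named after their values were seen. Alternatives were DESeq2 1.42.0, relative log expression or total counts in place of TMM, filterByExpr or no filter, adjusted p alone, 1 fit of all mice, leaving out each mouse, and leaving out libraries with hepatocyte genes. Total counts for the DNA replication and non-cluster histone lists, and the overlap over all genes, were added after the data were seen. The edgeR script was tested on simulated counts. Transcripts and 50-base stretches came from GENCODE M21, and promoters from RefSeq.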

Additional observations from a re-analysis of the deposited data

Results flagged for a closer look

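Within single groups, 8 of 180 tests by Dixon's criterion placed 1 mouse apart from the other 5, and chance gives about 1 in 20. In Vehicle Day 1, mouse 25 had the highest core sum (502.9 CPM, with the next mouse at 379.5) and the highest Hist1h4d (49.96 CPM). In the 200 mg/kg Day 0 group, mouse 22 was highest for Hist1h2bc (241.3 CPM), Hist1h4i (106.1 CPM) and Hist1h2bp (5.842 CPM). The other 3 were Hist1h1a in mouse 15 of Vehicle Day 0 (6.812 CPM), Hist1h2be in mouse 42 of the 100 mg/kg Day 1 group (47.11 CPM) and Hist2h2ab in mouse 31 of the 50 mg/kg Day 1 group (1.991 CPM).

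Effects that differed between days or with irradiation were tested as contrasts with edgeR's quasi-likelihood test, on the TMM scale. The 100 mg/kg effect was higher, in the signed sense given above, on Day 1 than on Day 0 for 20 members. These were led by Hist1h4m (3.07 ± 0.54), Hist1h2bc (2.71 ± 0.40) and Hist1h4i (2.63 ± 0.38). The 200 mg/kg effect was higher on Day 1 for 26 members, led by Hist1h4m (2.78 ± 0.58), Hist1h2bc (2.26 ± 0.31) and Hist1h4i (2.25 ± 0.31). The 50 mg/kg effect was higher on Day 1 for 10 members, led by Hist3h2ba (2.24 ± 0.33), Hist1h4m (2.09 ± 0.53) and Hist1h2bp (1.83 ± 0.42). Of these, Hist3h2ba and Hist1h2bp were lower DEGs at 50 mg/kg on Day 0 and not DEGs on Day 1. With irradiation the 200 mg/kg effect was higher for 1 member, Hist2h2ab (2.05 ± 0.73, but 1.55 with adjusted p = 0.090 by edgeR without the libraries with hepatocyte genes). That gene was a lower DEG at 200 mg/kg without irradiation and not a DEG with it. The effect was lower for 15 members, led by Hist1h4m (-3.13 ± 0.55), Hist1h2bc (-2.26 ± 0.43) and Hist1h3g (-2.23 ± 0.54). Total-count scaling changed these counts, as given in the next section.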

How the results depend on the processing

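Scaling changed the most. With total counts, members higher and lower numbered 4 and 16 for 100 mg/kg and again for 200 mg/kg on Day 1, 5 and 16 after TBI against Vehicle Day 0, and 3 and 3 after TBI at 200 mg/kg, with 0 lower at 50 mg/kg on Day 0. The day contrasts then gave 1 and 3 for 50 mg/kg, 3 and 22 for 100 mg/kg and 1 and 10 for 200 mg/kg, and the TBI contrast 12 and 2. The log2 ratio of medians with total counts, linker then core, was -0.0026 and 0.23 at 50 mg/kg on Day 0, 0.15 and 0.26 at 50 mg/kg on Day 1, 0.53 and 0.39 for 100 mg/kg on Day 1, 0.58 and 0.28 for 200 mg/kg on Day 1, -0.0029 and 0.040 between vehicle days, 0.76 and 0.45 after TBI against Vehicle Day 1, and 0.19 and 0.25 after TBI at 200 mg/kg. The core ratio at 200 mg/kg on Day 0 was -0.13. Folds that turned were Hist1h1e at 100 and 200 mg/kg (-0.33 and -0.31), Hist1h2be (-0.021), Hist1h1b (-0.19) and Hist1h4n (-0.042) at 200 mg/kg, Hist1h2be in the 100 mg/kg day contrast (-0.016), Hist3h2ba in the 200 mg/kg day contrast (-0.022), and Hist1h2be (0.029) and Hist1h4n (0.0043) in the TBI contrast.

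Members lower after TBI against Vehicle Day 1 numbered 7 by DESeq2, by relative log expression and by filterByExpr, and 6 without the libraries with hepatocyte genes, which gave 0 and 25 in the TBI contrast. DESeq2 gave 1 lower between vehicle days, 19 higher in the 50 mg/kg day contrast and 1 lower in the 200 mg/kg one, and relative log expression gave 17 in the 50 mg/kg one. Adjusted p alone gave 7 lower at 50 mg/kg on Day 0, 2 higher at 50 mg/kg on Day 1, 2 lower at 200 mg/kg on Day 1, 17 lower after TBI against Vehicle Day 0, 21 higher in the 50 mg/kg day contrast and 2 higher in the TBI contrast. A fit of all mice gave 1 lower at 100 mg/kg on Day 1 and 1 higher after TBI at 200 mg/kg. Apart from what total counts and left-out libraries change by construction, the cause was not tested.

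Leaving out each mouse gave 2 to 4 lower at 50 mg/kg on Day 0, 30 to 32 higher and 0 to 1 lower at 100 mg/kg on Day 1 (1 without mouse 38), and 31 to 32 higher and 1 to 1 lower at 200 mg/kg. After TBI it gave 9 to 11 higher and 6 to 13 lower against Vehicle Day 1, 6 to 11 and 8 to 14 against Vehicle Day 0, and 13 to 24 lower at 200 mg/kg. No paired analysis was possible because the groups share no replicate numbers. For the named genes that were DEGs, 479 alternative values kept direction and side of the threshold, 64 lost the call and 9 turned. Depth limits low members such as Hist2h2ab and Hist1h2bq, both under 1 CPM on average, to few counts per library.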

Other observations

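Histone genes outside the clusters, most of which give polyadenylated mRNAs, were followed as a list of 11. On Day 1 at 200 mg/kg against Vehicle Day 1, where 17.3% of all genes were higher and 30.5% lower, 4 were higher on the TMM scale, the linker histone gene H1fx (2.71), the H2A variant genes H2afj (1.85) and H2afz (1.24), and the H3.3 gene H3f3a (2.07), and the macroH2A gene H2afy was lower (-1.48). With total counts 0 were higher and 4 lower, H2afy among them. After TBI against the same controls, H1fx (2.56), H2afy2 (2.83), H2afz (1.04) and the H3.3 gene H3f3b (1.13) were higher and H2afy was lower (-1.03), beside 19.6% and 16.4% of all genes, while total counts gave 1 higher, H1fx (2.11), and 1 lower, H2afy (-1.38). The total-count values of this list were computed after its TMM values were seen.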
